A study of Homo sapiens with 8 samples.

Results

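The high mobility group (HMG) proteins are abundant, non-histone proteins of chromatin, and the 10 genes HMGN1 to HMGN5, HMGA1, HMGA2 and HMGB1 to HMGB3 were followed here across FT293 cells that express GFP, HuR, TIA1 or TIAR. The members were all array probes that carry 1 of these gene names, which gave 17 probes, for 10 of 36337 gene names on the array. FT293 cells are HEK293 human embryonic kidney cells with a single integration site (Flp-In T-REx), from which tetracycline switches on GFP alone or a GFP fusion of HuR, TIA1 or TIAR. All 4 lines carried such a transgene and received tetracycline, so GFP-expressing cells were the control for the tag and the drug, and RNA was taken on day 3. Each line was measured on 2 one-colour arrays, which the series design describes as independent biological replicates of a line.

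HMG proteins fall into 3 families with different ways of holding DNA. HMGN proteins bind inside the nucleosome and compete with linker histone H1, which loosens compact chromatin. HMGA proteins grip the minor groove of AT-rich DNA with short AT-hooks, and HMGB proteins bend DNA with paired HMG boxes. TIA1 and TIAR are closely related RNA-binding proteins that favour U-rich RNA and hold back translation under stress, and HuR is an RNA-binding protein best known for stabilizing AU-rich mRNAs. HMGN5 has a long acidic tail, is encoded on the X chromosome, and was among the genes that the study also measured by qPCR.

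The sequences behind the 3 genes on which the results turn are shown 5′ to 3′ as printed on the array. Coordinates were read from the array design, which uses hg19 (GRCh37). The HMGN5 probe (NM_030763, minus strand) lies at chrX:80370114-80370173, and its first 26 bases end in a TAA, in capitals, that closes the reading frame open from base 3. The first HMGA2 probe (NM_003484, plus strand) lies at chr12:66219101-66219160, with the codons of an AT-hook core (arginine, glycine, arginine, proline) in capitals. The third HMGA2 probe (NM_003483, plus strand) lies at chr12:66359789-66359848, and its first 30 bases are given. The HMGB2 probe (NM_002129, minus strand) lies at chr4:174253013-174253072, and a run of T in its first 30 bases is in capitals. The primers are those of the qPCR.
HMGN5 probe, first bases: aagaggagccacagagtattgttTAA
The first HMGA2 probe: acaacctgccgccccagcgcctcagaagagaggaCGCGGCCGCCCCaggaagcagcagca
First bases of the third HMGA2 probe: aagttaggtatgtttgcaggagaaaagtat
HMGB2 probe, first bases: taaaaaatgcaggttgtagcTTTTTgatgg
HMGN5 sense primer: ggagaagccaaaattacagagg
HMGN5 antisense primer: gctgccactgcttctttctt

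A run of 5 T (TTTTT, searched on the printed strand only) was found in 5 of the 17 HMG probes (29.4%) and in 10.6% of the 50599 probes of the array. The run was in the HMGA1, HMGB2, second HMGA2 and first HMGB3 probes and in an HMGN2 probe. The pentamer ATTTA was found in 1 HMG probe (5.88%) and in 7.79% of all probes. The HMGN5 probe and the third HMGA2 probe held neither motif. No HMG probe shared 20 or more consecutive bases with another probe of the array on either strand, and the probes were not aligned to a genome here, which holds many processed copies of HMGN and HMGB genes.

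Signals are given as log2 of the scanner's processed intensity minus the 75th percentile of the same array, so that 0 is the brightness of that percentile. All 17 HMG probes were well above background on all 8 arrays, and no spot of any array was saturated. Of the 7 genes fixed as HEK293-like markers 6 were well above background on all 8 arrays. Of 5 marker genes of other tissues, 1, PTPRC, was so by 1 of its probes. By their best probes LUM and DCN were so on 7 arrays, ALB on 6 and CD3E on 2. The mark by itself therefore does not tell cell types apart. One TIAL1 probe, for the gene of TIAR, was higher in TIAR- than in HuR-expressing cells, with a log2 difference of 2.44 (limma adjusted p = 0.0037, standard error 0.10), and the other gave -0.39. The TIA1 probes were not higher in TIA1-expressing cells (log2 fold changes versus HuR of -0.52 and -0.98). In TIAR-expressing cells they gave -0.55 and -1.58. The ELAVL1 probe, for HuR, gave -0.29 (limma adjusted p = 0.43) for TIA1 versus HuR and 0.15 (adjusted p = 0.64) for TIAR versus HuR. Whether these probes lie within the transgenes is not given in the sources used here. The paper reports that ectopic TIA1 or TIAR depleted the endogenous TIA proteins, and that ectopic HuR lowered endogenous HuR. The array GFP 1 stood apart, with 86.0% of probes well above background against 53.2% to 58.5% on the other arrays and a mean local background of 83.2 against 35.7 to 41.5, and the correlation of the GFP arrays was 0.947 against 0.993 to 0.997 in the other lines. HMG fold changes against GFP are therefore also given without it. The array files number GFP and TIA1 arrays in the first row of the slide and TIAR and HuR arrays in the second. Slide row and line therefore cannot be told apart in TIA1 versus HuR, TIAR versus TIA1, TIAR versus GFP and HuR versus GFP. TIAR and HuR shared a row, as did TIA1 and GFP. In RNA of whole cultures, fewer cells with a transcript and less of it per cell cannot be told apart.

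HMGN5 was downregulated in both TIA lines when compared with HuR-expressing cells. It is the only gene here measured by 10 spots on each array, whose means were 0.87 and 0.93 in HuR-, -0.23 and -0.36 in TIA1-, -0.24 and -0.26 in TIAR- and 0.55 and 0.25 in GFP-expressing cells. The arrays of the HuR line were highest, those of GFP lay between, and those of the TIA lines were lowest, with no overlap between these 3 levels. With 2 arrays in a line such separation is common: 75.7% of all probes tested did not overlap between TIA1 and HuR and 71.6% between TIAR and HuR. In the other comparisons of 2 lines the share was 53.3% to 57.6%.

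On the log2 scale HMGN5 fell by 1.19 in TIA1- versus HuR-expressing cells (2.29-fold, limma adjusted p = 0.0038, standard error 0.10). In TIAR- versus HuR-expressing cells it fell by 1.15 (2.22-fold, limma adjusted p = 0.0059, standard error 0.09). These comparisons share the HuR arrays. The difference between TIAR and TIA1 was 0.05 (95% interval -0.26 to 0.35, adjusted p = 0.84), so that a difference of more than 0.35 in either direction lies outside the interval. Across the lines the order of mean levels was HuR (0.90), GFP (0.40), TIAR (-0.25) and TIA1 (-0.29), and no neighbours in that order differed at an adjusted p under 0.05. The TIAR comparison lost its call when either HuR array was left out, with adjusted p = 0.060 without HuR 1 and 0.068 without HuR 2, at fold changes of -1.18 and -1.12. In the authors' table its log2 fold change was -0.98, just inside 2-fold, with adjusted p = 0.0049.

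**Figure D1:**
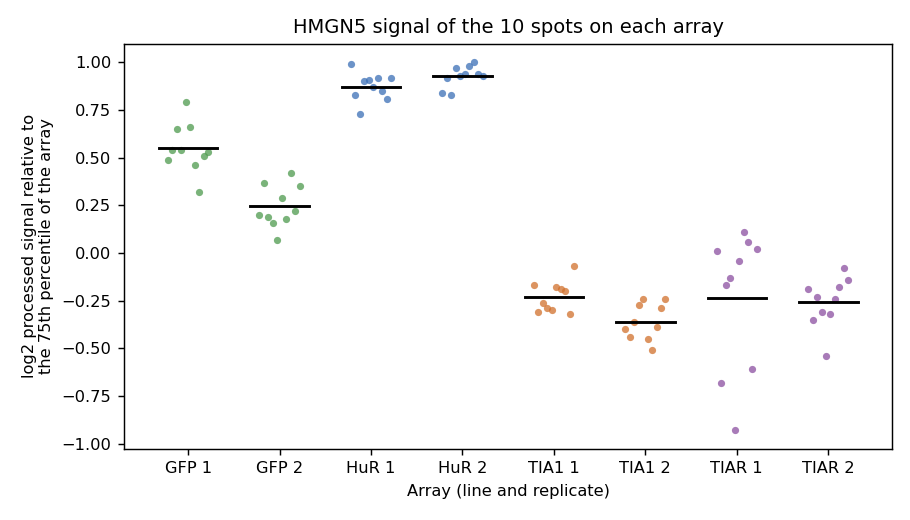
HMGN5 log2 signal relative to the 75th percentile of the array, for each of the 10 spots (points) on each of the 8 arrays, with the array mean as a line. Spots of the HuR arrays reached from 0.73 to 1.00 and those of the TIA1 arrays from -0.51 to -0.07, while spots of TIAR 1 were more spread, down to -0.93.

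Within an array the HMGN5 spots had SDs of 0.06 to 0.13 on 7 arrays and 0.37 on TIAR 1. On TIAR 1 the lowest spot was -0.93, the median -0.08 and the highest 0.11, as the plot of HMGN5 spots shows. No HMGN5 spot of a TIA line was as high as the lowest HMGN5 spot of the HuR line, at 0.73. Spots of 1 array share its RNA and are not replicates.

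Against GFP the HMGN5 values of the TIA lines were lower but did not pass. The log2 fold change was -0.69 (95% interval -1.29 to -0.09, adjusted p = 0.20) for TIA1 and -0.65 (95% interval -1.24 to -0.05, adjusted p = 0.28) for TIAR. It was 0.50 (adjusted p = 0.31) for HuR. Without GFP 1 the HMGN5 values were -0.54, -0.50 and 0.65, in the same order. Without GFP 2, which leaves only the array that stood apart, they were -0.84 for TIA1 and -0.80 for TIAR. With all 8 arrays in one limma fit the adjusted p of HMGN5 was 0.028 for TIA1 and 0.046 for TIAR. In that fit 18.9% and 11.6% of all probes had an adjusted p under 0.05. HMGN5 stayed under 2-fold in each of these fits. A GFP array left alone is assumed to vary like the arrays of the other line.

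The other HMGN genes moved less and none reached 2-fold. HMGN1, a nucleosome-binding protein of most cell types, was measured by 2 probes on chromosome 21. The first gave 5.61 and 5.62 in HuR-, 5.35 and 5.21 in TIA1-, 5.15 and 4.96 in TIAR- and 5.47 and 5.88 in GFP-expressing cells. In TIAR- versus HuR-expressing cells the HMGN1 log2 fold changes were -0.56 (adjusted p = 0.030) and -0.60 (adjusted p = 0.018), and in TIA1- versus HuR-expressing cells they were -0.34 (adjusted p = 0.058) and -0.42 (adjusted p = 0.13). The probes lay on the same side of HuR in both comparisons, and the first lost its adjusted p in 2 of 3 other scalings for TIAR (up to 0.12).

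HMGN3, an HMGN protein first found through the thyroid hormone receptor, was read by a probe whose 60 bases span 1250 bases of chromosome 6 and so cross an exon junction. Its signal was 3.61 and 3.67 in HuR-, 3.26 and 3.12 in TIA1-, 3.12 and 2.94 in TIAR- and 3.22 and 3.47 in GFP-expressing cells. Both TIA lines lay below HuR without overlap, as 75.7% (TIA1) and 71.6% (TIAR) of all probes tested did not overlap with HuR in either direction. The HMGN3 log2 fold change was -0.46 (adjusted p = 0.029) for TIA1 and -0.61 (adjusted p = 0.024) for TIAR, and it stayed under an adjusted p of 0.05 in all 3 other scalings. It was above it in both comparisons without the filter on dim probes (0.11 and 0.094), with all 8 arrays in one fit (0.088 and 0.053), with the replicate block (0.055 and 0.057) and without either HuR array (0.13 to 0.18). For TIA1 the HMGN3 value was also above it without TIA1 2 (adjusted p = 0.054).

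HMGN4, which resembles a processed copy of HMGN2, read 2.54 and 2.46 in HuR-, 2.39 and 2.21 in TIA1-, 2.10 and 2.04 in TIAR- and 1.85 and 2.12 in GFP-expressing cells. Its log2 fold change was -0.43 (adjusted p = 0.038) for TIAR versus HuR, and this did not hold in any of the 3 other scalings (adjusted p up to 0.46). For TIA1 versus HuR the HMGN4 value was -0.20 (adjusted p = 0.20).

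HMGN2 was measured by 4 probes within a stretch of chromosome 1 from 26801948 to 26802458, of which the probes at 26802354 and 26802399 overlap. For TIA1 versus HuR the 4 log2 fold changes reached from 0.01 to 0.40, and the highest passed (adjusted p = 0.032). That probe read 7.71 and 7.76 in HuR- and 8.10 and 8.17 in TIA1-expressing cells, without overlap, like 75.7% of all probes tested. It kept an adjusted p under 0.05 in only 1 of 3 other scalings. With the authors' normalization the HMGN2 value was 0.16 (adjusted p = 0.30). In TIAR- versus HuR-expressing cells the HMGN2 probes ranged from -0.30 to 0.06 and none passed.

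**Figure D2:**
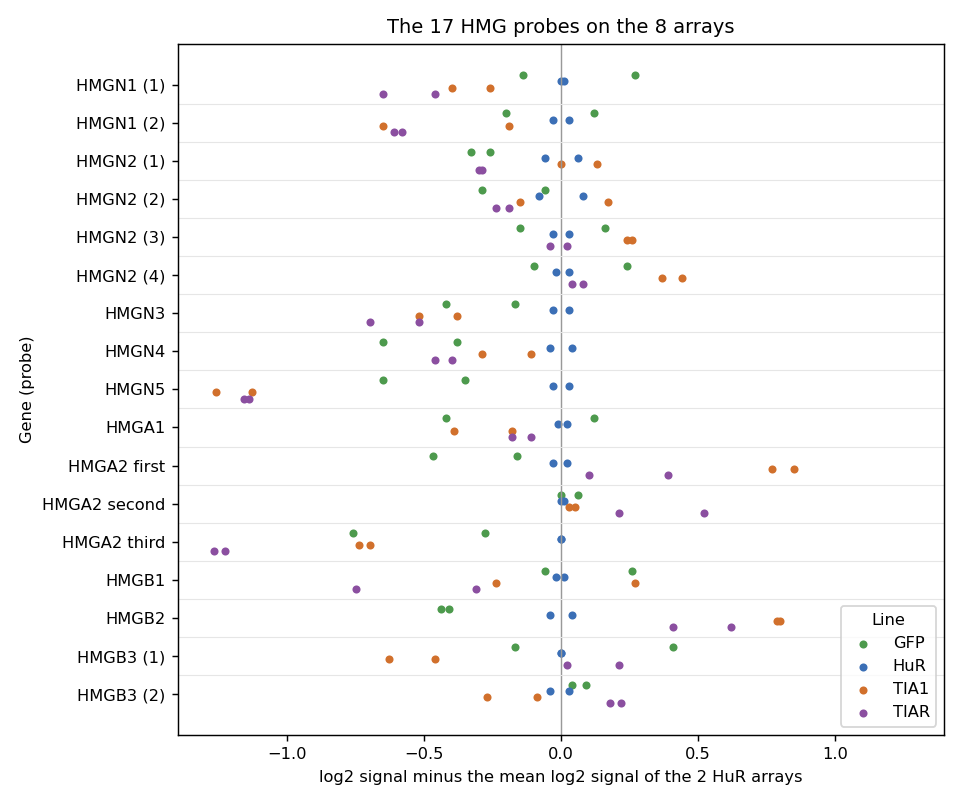
Log2 signal of each of the 17 HMG probes on each of the 8 arrays, minus the mean of the 2 HuR arrays for that probe, coloured by line. HMGN5 and the third HMGA2 probe lie farthest to the left in the TIA lines, and HMGB2 and the first HMGA2 probe lie to the right of HuR.

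The probes of HMGA2 went in opposite directions. HMGA2 is an oncofetal chromatin protein and its mRNA is a known target of the let-7 microRNAs. The third probe read 2.67 and 2.67 in HuR-, 1.97 and 1.93 in TIA1-, 1.44 and 1.40 in TIAR- and 1.91 and 2.39 in GFP-expressing cells. HuR arrays were highest and TIAR arrays lowest, and the TIA1 arrays lay between them, within the range of the GFP arrays.

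This HMGA2 probe was downregulated in TIAR- versus HuR-expressing cells, where it fell by 1.26 in log2 units (2.39-fold, limma adjusted p = 0.0053, standard error 0.09). For TIA1 versus HuR it gave -0.72 (1.65-fold, limma adjusted p = 0.0074, standard error 0.09), under the 2-fold limit. Between the TIA lines it was -0.53 (95% interval -0.82 to -0.24, adjusted p = 0.077), lower in TIAR. Without HuR 1 or HuR 2 the TIAR value was -1.25 (adjusted p = 0.057) or -1.26 (adjusted p = 0.061), so the call rests on both HuR arrays.

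The first HMGA2 probe, with the AT-hook codons, read 1.08 and 1.13 in HuR-, 1.88 and 1.96 in TIA1-, 1.21 and 1.50 in TIAR- and 0.95 and 0.64 in GFP-expressing cells. The TIA1 arrays were the highest and the GFP arrays the lowest, with no overlap between any of the lines. Between any 2 lines, 53.3% to 75.7% of all probes tested did not overlap. Its HMGA2 log2 fold change versus HuR was 0.81 for TIA1 (1.76-fold, limma adjusted p = 0.0065, standard error 0.09) and 0.25 for TIAR (95% interval -0.12 to 0.61, adjusted p = 0.23). TIAR was below TIA1 by a log2 difference of -0.57 (adjusted p = 0.11).

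The second HMGA2 probe (NM_003484, chromosome 12 from 66309240 to 66309299) carries the same accession as the first and lies between the others along the gene. It was dim, between -3.50 and -3.44 on the arrays of GFP, HuR and TIA1 and at -2.98 and -3.29 on those of TIAR. The TIAR arrays lay above all others, with a log2 fold change versus HuR of 0.36 (adjusted p = 0.12).

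Within an array, the change of the third HMGA2 probe from its HuR mean less that of the first was -1.47 and -1.59 in TIA1-, -1.33 and -1.66 in TIAR-, -0.60 and 0.19 in GFP- and 0.03 and -0.02 in HuR-expressing cells. This difference was formed after the values were seen and has no test. It was lower on all 4 arrays of the TIA lines than on any array of GFP or HuR. A difference between probes of the same gene shows unequal change of what they bind, and their absolute levels cannot be compared.

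**Figure D3:**
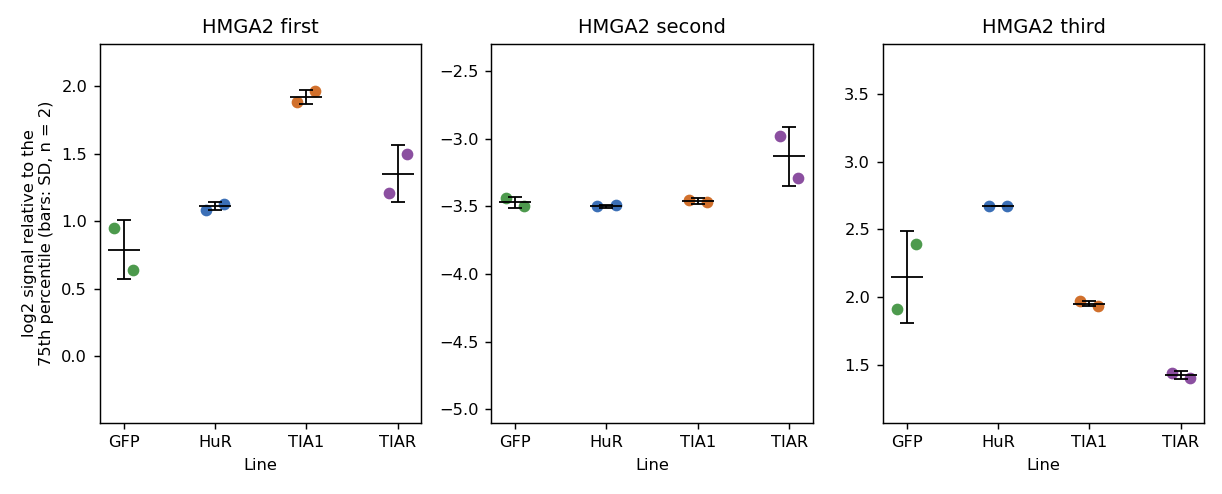
Log2 signal, relative to the 75th percentile of the array, of the 3 HMGA2 probes in order along the gene, with the 2 arrays of each line as points and mean ± SD (n = 2) as bars. Every panel spans the same number of log2 units. The first probe was highest in the TIA1 line and the third was highest in the HuR line.

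HMGA1, the other AT-hook gene, read 5.46 and 5.43 in HuR-, 5.26 and 5.05 in TIA1-, 5.26 and 5.33 in TIAR- and 5.02 and 5.56 in GFP-expressing cells. The TIA lines lay slightly below HuR, at log2 fold changes of -0.29 (adjusted p = 0.11) and -0.15 (adjusted p = 0.29), and the GFP arrays spanned all the others.

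HMGB2, an HMG box protein that is plentiful in dividing cells, had its brightest arrays in the TIA lines. Its signal was 4.38 and 4.46 in HuR-, 5.21 and 5.22 in TIA1-, 4.83 and 5.04 in TIAR- and 3.98 and 4.01 in GFP-expressing cells. The 4 lines did not overlap, and the GFP arrays were lowest.

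Versus HuR, the HMGB2 log2 difference was 0.79 for TIA1 (1.73-fold, limma adjusted p = 0.0066, standard error 0.09) and 0.52 for TIAR (1.43-fold, limma adjusted p = 0.041, standard error 0.12). Both lay under the 2-fold limit, and the TIAR value passed in 1 of 3 other scalings (adjusted p up to 0.12). The TIAR value also did not pass without the filter on dim probes (limma adjusted p = 0.13), with all 8 arrays in one fit (0.058) or with the replicate block (0.067). Against GFP the difference was wider, at 1.22 (95% interval 0.71 to 1.73, adjusted p = 0.10) for TIA1 and 0.94 (95% interval 0.38 to 1.50, adjusted p = 0.21) for TIAR. Without GFP 1 the HMGB2 values were 1.20 for TIA1 and 0.92 for TIAR. Without GFP 2, which leaves only the array that stood apart, they were 1.23 and 0.96.

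HMGB1, which also acts as an alarm signal outside cells, was read by a probe across an exon junction of chromosome 13. It read 4.74 and 4.77 in HuR-, 4.52 and 5.03 in TIA1-, 4.45 and 4.01 in TIAR- and 4.70 and 5.02 in GFP-expressing cells. The TIAR arrays were lowest, at a log2 fold change versus HuR of -0.53 (adjusted p = 0.091), and the TIA1 arrays lay on both sides of HuR.

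HMGB3, an X-linked HMG box protein, had 2 probes. The first read 0.42 and 0.42 in HuR-, -0.21 and -0.04 in TIA1-, 0.44 and 0.63 in TIAR- and 0.25 and 0.83 in GFP-expressing cells. Only the TIA1 arrays were low, and the HMGB3 log2 fold change was -0.55 (adjusted p = 0.021) versus HuR. Between the TIA lines it was 0.66 (adjusted p = 0.080), higher in TIAR, and the second HMGB3 probe gave 0.38 (adjusted p = 0.17) there and -0.18 (adjusted p = 0.26) for TIA1 versus HuR.

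**Figure D4:**
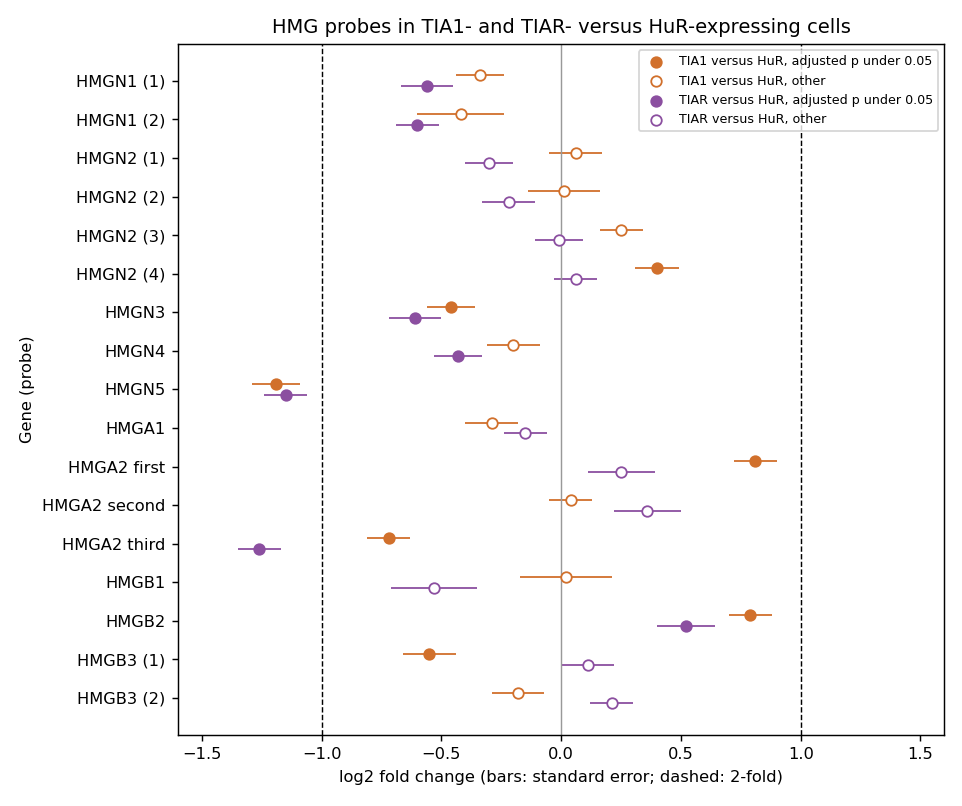
Log2 fold change of the 17 HMG probes in TIA1- versus HuR- and TIAR- versus HuR-expressing cells, with limma standard errors as bars, filled points for adjusted p under 0.05 and dashed lines at 2-fold. HMGN5 lies beyond 2-fold in both comparisons and the third HMGA2 probe in that of TIAR.

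Calls required an adjusted p under 0.05 together with a difference of 2-fold or more. In TIA1- versus HuR-expressing cells 1 of 17 HMG probes was called, HMGN5, which is 5.88% beside 13.4% of all 28743 probes tested. All probes called lower there came to 4.90%. In TIAR- versus HuR-expressing cells 2 of 17 were called, HMGN5 and the third HMGA2 probe, which is 11.8% beside 10.1% of 29099 probes, of which 3.01% were called lower. Beside calls in either direction, the HMG share was thus lower in the first comparison and near the background in the second. All HMG calls were lower, however. Beside the probes called lower, the HMG share was 5.88% against 4.90% for TIA1 and 11.8% against 3.01% for TIAR. These shares rest on 1 and 2 of 17 probes, and no difference from the background was tested. The share of all calls that were higher was 63.4% and 70.1% in the 2 comparisons, and 52.9% and 56.2% after quantile normalization.

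With the adjusted p alone, 3 HMG probes were higher and 4 lower in TIA1- versus HuR-expressing cells, 17.6% and 23.5% of the 17. Among all probes tested 24.2% were higher and 17.3% lower by that rule. In TIAR- versus HuR-expressing cells 1 HMG probe was higher and 6 were lower, 5.88% and 35.3%, beside 18.1% and 12.6% of all probes. The 6 lower probes belong to HMGN1, HMGN3, HMGN4, HMGN5 and HMGA2. Of the 7 HMG probes in each comparison, 6 for TIA1 and 4 for TIAR kept an adjusted p under 0.05 in all 3 other scalings. The median log2 fold change of the 17 probes was -0.18 for TIA1 and -0.22 for TIAR, beside 0.08 and 0.05 over all probes. Without HuR 1 or HuR 2, the HMG probes under an adjusted p of 0.05 numbered 1 for TIA1, which was HMGN5, and 0 for TIAR. Over all probes the share under that adjusted p also fell, from 41.5% to 11.4% and 10.3% for TIA1 and from 30.6% to 2.66% and 2.17% for TIAR.

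Between TIAR- and TIA1-expressing cells no HMG probe was called by limma, beside 2.35% of 28063 probes. By the adjusted p alone none passed, beside 3.48% of all probes, and 6 of the 17 HMG probes had an unadjusted p under 0.05, beside 23.8% of all. The share of all probes called was itself unstable, at 0% to 0.121% when an array was left out and 0% with the replicate block or without the filter on dim probes. The fold changes reached from -0.57 for the first HMGA2 probe to 0.66 for the first HMGB3 probe.

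In the 3 comparisons with GFP limma called no HMG probe, and of all probes it called 0% in TIA1, 0% in TIAR and 0% in HuR versus GFP. With an unadjusted p under 0.05 there were 3, 3 and 0 of the 17 HMG probes, beside 21.7%, 16.4% and 17.2% of all probes. The paired test that the methods name, at an unadjusted p under 0.05, called 1 HMG probe in TIA1 versus GFP, HMGB2, beside 2.56% of all probes, and none after adjustment. Leaving out GFP 1, limma called 2 HMG probes in TIA1 versus GFP, the first HMGA2 probe at a log2 fold change of 1.28 (adjusted p = 0.029) and HMGB2 at 1.20 (adjusted p = 0.031), while all probes called then came to 11.5%. With both GFP arrays the first HMGA2 probe gave 1.13 (95% interval 0.53 to 1.72, adjusted p = 0.12). After quantile normalization the median log2 fold change of all probes was 0.24, 0.21 and 0.23 in TIA1, TIAR and HuR versus GFP, against 0.01, -0.02 and -0.04 with the percentile scaling.

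**Figure D5:**
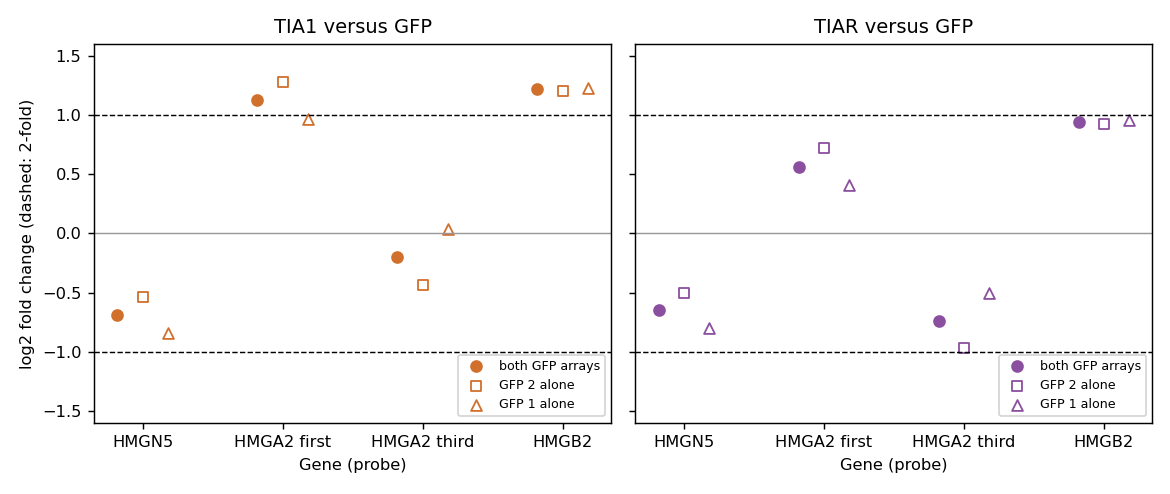
Log2 fold change of HMGN5, 2 HMGA2 probes and HMGB2 in TIA1- and TIAR- versus GFP-expressing cells, with both GFP arrays (filled), GFP 2 alone (squares) or GFP 1 alone (triangles), and dashed lines at 2-fold. HMGB2 lies between 1.20 and 1.23 for TIA1 whichever GFP array is used, and the third HMGA2 probe for TIA1 moves from -0.44 to 0.04.

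Linker histones, nucleosome chaperones, other HMG-box genes and the let-7 axis were taken as related lists. Of 10 linker histone genes 7 were tested, and 1, H1F0, the replacement linker histone of resting cells, was upregulated in both TIA lines versus HuR. H1F0 read -1.33 and -1.29 in HuR-, 0.38 and 0.54 in TIA1-, 1.87 and 1.74 in TIAR- and 0.73 and 0.63 in GFP-expressing cells. HuR arrays were lowest and TIAR arrays highest, with TIA1 below GFP. Its log2 fold change versus HuR was 1.77 (adjusted p = 0.0025) for TIA1 and 3.12 (adjusted p = 0.0035) for TIAR. The median of the linker histone probes was 0.18 and -0.04 in these comparisons. Of all probes tested, 13.4% and 10.1% were called in them.

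Of 22 other HMG-box genes 21 were tested in each comparison with HuR. HBP1, a repressor of cell-cycle genes, was upregulated in TIA1- (1.45, adjusted p = 0.0057) and TIAR-expressing cells (1.34, adjusted p = 0.0074), and TOX3 was downregulated in TIA1-expressing cells (-1.61, adjusted p = 0.0032). HBP1 read -1.67 and -1.46 in HuR- and -1.94 and -2.13 in GFP-expressing cells and lay between -0.30 and 0.05 on the TIA arrays, above both controls. TOX3 read -0.93 and -0.78 in HuR-, -2.37 and -2.56 in TIA1-, -1.49 and -1.80 in TIAR- and -2.12 and -2.11 in GFP-expressing cells. The HuR arrays were thus highest for TOX3. In TIA1 versus GFP its log2 fold change was -0.35 (limma adjusted p = 0.38). The median over the HMG-box probes was 0.18 and 0.09. HBP1 and TOX3 were the only genes called among 35 HMG-box probes. Of all probes tested, 13.4% were called in TIA1 versus HuR and 10.1% in TIAR versus HuR. None of the 17 nucleosome chaperone genes tested was called in any of the 6 comparisons, and none of 4 tested genes of the let-7 axis. Of all probes, 2.35% were called in TIAR versus TIA1 and 0% in each comparison with GFP.

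The 5 named genes whose signal most resembled that of HMGN5 over the 8 arrays, among 20533 probes well above background on all of them, were STK32C (Pearson r = 0.988), C8orf40 (r = 0.985), ADAM23 (r = 0.985), ATP6V1E2 (r = 0.984) and NEUROG2 (r = 0.982). The arrays share their RNA and scaling across these genes, and the 8 points are 4 lines in pairs. STK32C read -0.24 and -0.33 in HuR-, -1.69 and -1.88 in TIA1-, -1.71 and -1.62 in TIAR- and -0.80 and -0.89 in GFP-expressing cells, which is the order HuR, GFP, TIAR, TIA1 seen for HMGN5.

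Promoters of 8 of the 10 genes were in the RefSeq table (GRCh38.p14, 250 bases before to 50 bases after the gene start). Those of HMGA2 and HMGB2 were not. Their GC content ranged from 52.7% for HMGN5 to 79.3% for HMGN1, with a median of 64.3% beside 58.3% over 27305 promoters. CCAAT on either strand was found in 6 of 8 (75%) and in 35.7% of all promoters, and HMGN5 and HMGN4 were those without it.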

How the data were processed

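RNA of FT293 lines was hybridized to 8 one-colour Agilent arrays of 1 slide, 2 per line. The deposited processed signal is an intensity that the authors obtained with the scanner software after background subtraction and detrending. The authors' table for the series holds deposited log2 values, quantile-normalized, with the TIAR arrays apart. GFP 1 also differed there: the median of noncontrol spots was 7.36 on both TIAR arrays, 7.41 on GFP 1 and 7.50 to 7.51 on the others. Per the submitters' processing notes limma was used.

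Here outlier spots were left out, log2 intensities were set relative to the 75th percentile of each array and replicate spots were averaged. A probe entered a comparison if both arrays of 1 or both lines had it well above background by the scanner's mark, and was tested with limma 3.58.1 in R 4.3.3 on the 4 arrays of the comparison, two-sided, with Benjamini-Hochberg adjustment over all tested probes. The fit was tested on simulated data. All HMG probes are named, with every array given for HMGN5, for called probes and for examples. Per-array values of HMGB2, the first HMGA2 probe and others beyond that rule were added after their values were seen. The 5 genes most like HMGN5 follow Pearson r. The members and lists were chosen with earlier results of these data known. Of 17 HMG probes 16 had an accession in the RefSeq table, all with the same symbol. Probes were not assigned to exons, since no annotation of hg19 was used. Plots were drawn with matplotlib 3.10.9. Alternatives were quantile normalization, normexp background correction (offset 50), the authors' table, no filter, a filter on every array, all 8 arrays in one fit, outlier spots kept, the replicate number as a block, each array left out, and the paired test that the methods name. The number of arrays limits the precision.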

Additional observations from a re-analysis of the deposited data

Results flagged for a closer look

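The TIA lines differed in H1F0, the replacement linker histone, by the test of the difference itself: it was higher in TIAR- than in TIA1-expressing cells, with a log2 fold change of 1.34 (limma adjusted p = 0.027, standard error 0.13), and higher on both TIAR arrays than on any other array. The H1F0 difference kept its size, 1.26 to 1.47, but its adjusted p was 0.10 to 0.12 when any of the 4 arrays was left out, 0.082 with the replicate block, 0.23 without the filter on dim probes and 0.40 by the adjusted paired test of the methods. No HMG probe passed the test of TIAR versus TIA1. The TIAR and TIA1 arrays lay in different rows of the slide, so row and line cannot be told apart in this comparison.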

How the results depend on the processing

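Having only 2 arrays in a line limits every value. The count of HMG probes called in TIA1 versus HuR was 1 in every alternative other than the paired test of the methods after Benjamini-Hochberg adjustment, which called 0. In TIAR versus HuR it was 2, with 1 in the authors' table, 0 by the adjusted paired test, and 0 to 2 when an array was left out, 0 being without HuR 1 and without HuR 2. Of all probes, the authors' table called 5.91% for TIA1 and 4.35% for TIAR versus HuR, and the adjusted paired test 0% in both. With both arrays of each line kept, the HMG count in TIA1 versus GFP was 0, apart from 2 alternatives. It was 2 when all 8 arrays were fitted together, beside 9.05% of all probes, and 1 by the unadjusted paired test, beside 2.56%. In TIAR versus TIA1, TIAR versus GFP and HuR versus GFP it was 0 in all alternatives run. No HMG probe with an adjusted p under 0.05 changed sign. The replicate number as a block left the counts at 1 for TIA1 and 2 for TIAR versus HuR. Deviations of same-numbered arrays correlated at -0.09 to 0.18 across the 6 comparisons, so the numbers were not taken to pair the samples.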
